A study of Mus musculus with 6 samples.

Results

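A set of 9 mesenchymal transcription factors and 1 antisense RNA was followed in smooth muscle cell cultures of the mouse oviduct. The set was chosen by name, as the genes of the count table whose identifiers map to the symbols Hand2, Hand2os1, Hand1, Nr2f1, Nr2f2, Tcf21, Osr1, Emx2, Foxf1 and Tbx18. All 10 were found among the 54232 genes of the table. Hand2, the factor on which the study of the uterus turned, leads the account. Of these 10 genes, 8 had enough reads to be tested, and 4 of those 8 differed between genotypes: Tcf21 was higher and Hand2, Hand2os1 and Emx2 were lower in cells lacking Pbrm1. Among all 15376 genes tested, 43.7% differed by the same criterion (edgeR, adjusted p under 0.05), 21.9% being higher and 21.8% lower in the mutant, so that a share of 4 in 8 lay near the background.

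RNA-seq compared 3 libraries of WT cells with 3 libraries of Pbrm1 cKO cells. Pbrm1 encodes a subunit of the PBAF form of the SWI/SNF complex, an ATP-driven remodeler of nucleosomes, and the study removed a floxed Pbrm1 with a Cre inserted at Pgr, so that recombination was limited to cells that express or once expressed the progesterone receptor. All females were 8 to 12 weeks old, were mated with stud males and gave their oviducts on day 2 of pregnancy, after which digested, filtered cells spent 4 h and then 2 h in serum-containing medium. The labels name the controls WT, whereas the supplement of the study speaks of floxed mice and of biological replicates; strain and the number of animals behind a library are not given in the labels.

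The factors of the set pattern the mesoderm from which the female tract arises. HAND2 and TCF21 are basic helix-loop-helix (bHLH) proteins that bind DNA at E-boxes as dimers with ubiquitous E proteins, and in the uterine stroma HAND2 is induced by progesterone and restrains the fibroblast growth factors that stromal cells send to the epithelium. EMX2 is a homeodomain protein needed for the urogenital ducts, NR2F1 and NR2F2 (COUP-TFI and COUP-TFII) are orphan nuclear receptors of mesenchyme, and OSR1, FOXF1 and TBX18 are zinc finger, forkhead and T-box factors of intermediate and lateral mesoderm.

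The genotype and the cell type were checked first. Pbrm1 stood at 175 ± 7.09 CPM in WT and 45.6 ± 4.39 CPM in Pbrm1 cKO cells (mean ± SD, n = 3; CPM, the read count divided by the normalized library size and put on the usual per-library scale, is the unit of levels below), that is 26.0% of the WT level. Libraries held between 15390818 and 18947947 counts. The smooth muscle genes Acta2, at 1287 ± 33.5 CPM, and Tagln, at 1598 ± 22.1 CPM, were abundant in WT. Myh11 at 88.2, Cnn1 at 62.1 and Myocd at 4.60 CPM, of the same list, were much lower. All 8 smooth muscle markers passed the filter on low counts, which does not by itself show the cell type. The collagen gene Col1a1 was above both Acta2 and Tagln, at 2612 ± 311 CPM in WT. Markers of leukocytes and epithelium were measurable too, so transcripts of other cell types were present.

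**Figure D1:**
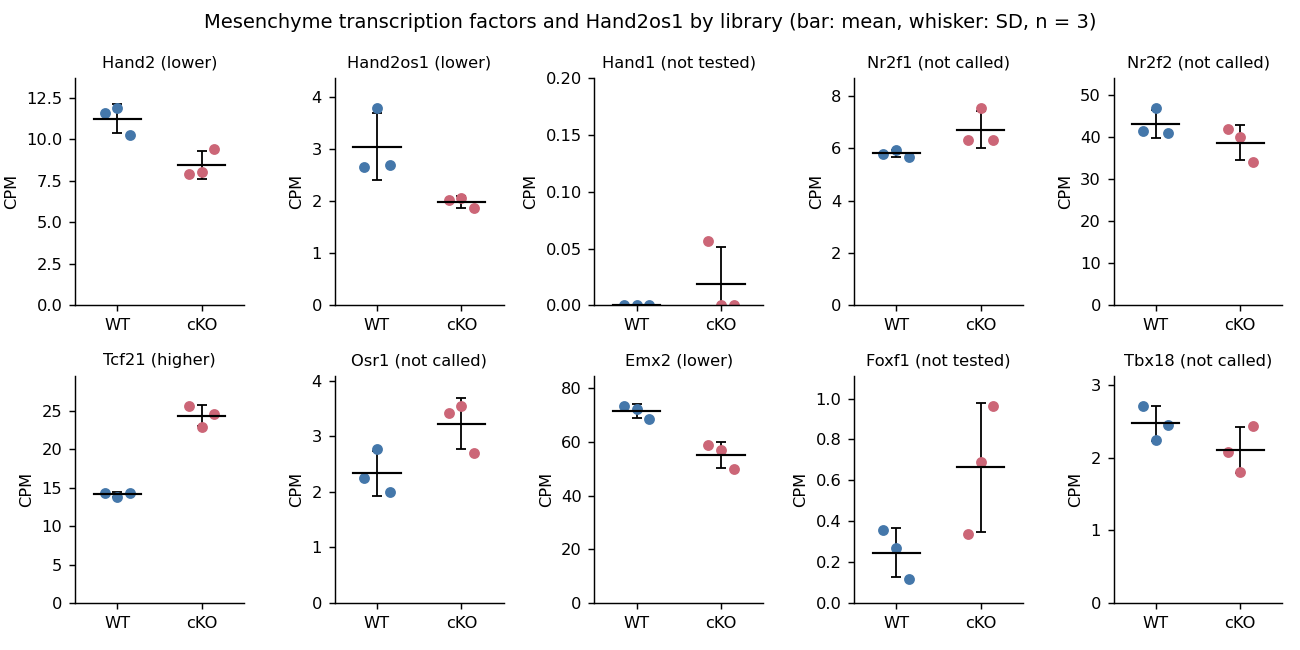
Normalized CPM (y axis, from 0, a scale for each gene) of the 10 genes in each WT (blue) and Pbrm1 cKO (red) library; horizontal bars give the mean and whiskers the SD of 3 libraries, and the word in brackets gives the edgeR call. The groups stand apart for Hand2, Hand2os1, Tcf21, Emx2 and, by a narrow margin, Nr2f1.

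Sequences around the start sites of 3 genes are shown because Hand2 and Hand2os1 leave a shared region in opposite directions and moved the same way, Emx2 and its antisense partner Emx2os do so and moved in opposite ways, and Tcf21 was the single gene of the 8 tested that was called higher. The windows, from RefSeq on GRCm38.p6, run from 250 bases before to 50 bases after the start and are written along the strand of the gene, with E-boxes (CANNTG, which reads the same on both strands) in capitals. The Hand2 window is chr8:57320733-57321032 on the plus strand, the Emx2 window chr19:59458440-59458739 on the plus strand and the Tcf21 window chr10:22820094-22820393 on the minus strand.
Hand2: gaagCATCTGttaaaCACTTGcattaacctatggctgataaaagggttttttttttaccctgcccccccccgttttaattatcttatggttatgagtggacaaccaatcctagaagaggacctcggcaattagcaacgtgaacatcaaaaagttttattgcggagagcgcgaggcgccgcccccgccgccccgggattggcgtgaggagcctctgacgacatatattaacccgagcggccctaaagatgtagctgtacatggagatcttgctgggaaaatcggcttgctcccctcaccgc
Emx2: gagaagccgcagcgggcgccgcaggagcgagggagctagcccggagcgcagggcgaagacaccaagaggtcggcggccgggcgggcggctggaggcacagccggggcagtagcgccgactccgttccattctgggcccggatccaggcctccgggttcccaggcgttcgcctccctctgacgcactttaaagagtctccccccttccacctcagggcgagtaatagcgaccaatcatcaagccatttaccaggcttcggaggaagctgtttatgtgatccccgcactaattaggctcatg
Tcf21: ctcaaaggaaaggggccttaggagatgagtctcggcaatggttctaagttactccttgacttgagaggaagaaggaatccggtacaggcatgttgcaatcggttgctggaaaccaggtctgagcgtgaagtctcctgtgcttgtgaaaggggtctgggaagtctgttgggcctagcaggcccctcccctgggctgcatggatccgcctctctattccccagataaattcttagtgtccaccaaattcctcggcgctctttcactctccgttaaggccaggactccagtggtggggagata

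The Hand2 window held 2 E-boxes and 2 matches to GATAA, searched on both strands as the core bound by zinc finger factors such as GATA4, while the Tcf21 window held no E-box and 1 GATAA match and the Emx2 window held neither. Of all 32851 windows of this length, 72.3% held CANNTG and 25.4% held GATAA. The RefSeq start of Hand2os1 lay 124 bases from that of Hand2, and the windows of both genes shared 223 bases, whereas in the annotation used for counting the 5′ ends of the 2 genes lay 3250 bases apart. The Emx2 window lay inside the Emx2 gene of that annotation, whose 5′ end is at chr19:59458372. The Emx2 window was rich in CpG, with 26 of them against a median of 7 over all windows, and a GC content of 64.3% against a median of 52.7%. The Hand2 window was above that CpG median too, with 17, and the Tcf21 window held 8. Windows were found for 7 of the 10 genes. A match here is a run of letters, and binding was not measured in these files.

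Hand2 (chr8:57320983-57324633, plus strand, GRCm38) was lower in Pbrm1 cKO cells. WT libraries 1 to 3 received 196, 222 and 175 reads and Pbrm1 cKO libraries 1 to 3 received 140, 151 and 146 reads, which correspond to 11.6, 11.9 and 10.2 CPM in WT and 7.87, 8.01 and 9.39 CPM in Pbrm1 cKO. Every WT library was above every mutant library, with WT replicate 3 and Pbrm1 cKO replicate 3 closest to each other. The mean went from 11.2 ± 0.866 to 8.43 ± 0.841 CPM (SD, n = 3), so that 75.0% of the WT level was left. On the log2 scale this was a change of -0.42 (SE 0.11, adjusted p = 0.00658, edgeR), and its 95% interval put the mutant level between 63.5% and 87.9% of WT. The difference passed the threshold under all 14 alternatives tried, with log2 fold changes between -0.50 and -0.37. It was not an extreme change for these cells, as 25.7% of all genes tested had a larger absolute log2 fold change. The study, showing browser tracks of RNA and of chromatin accessibility in oviduct smooth muscle cells, called both comparable between the genotypes at Hand2. Its legend gives no fold change or threshold for that reading, and the value here comes from a fit of the counts. For uterine cells the study asked for a minimum fold change, which the Hand2 difference here would not reach. These readings therefore need not conflict. In bulk cultures fewer cells of a type and less RNA per cell cannot be told apart, here and for each gene below.

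Hand2os1 (chr8:57281117-57324233, minus strand), the RNA transcribed from the opposite strand across the upstream region and most of the Hand2 gene, was also lower, from fewer reads. Its counts were 45, 71 and 46 in WT and 36, 39 and 29 in Pbrm1 cKO, or 2.66, 3.80 and 2.69 CPM against 2.02, 2.07 and 1.87 CPM. The groups did not overlap, and WT replicate 2 was well above the other two WT libraries. The log2 fold change was -0.62 (SE 0.20, adjusted p = 0.0224, edgeR). Without WT replicate 2 it was -0.43 with an adjusted p of 0.140 (edgeR), and the call was also lost without Pbrm1 cKO replicate 1 (adjusted p = 0.0558), without Pbrm1 cKO replicate 3 (adjusted p = 0.0603) and with DESeq2 (adjusted p = 0.0728). Hand2 and Hand2os1 share 461 exonic bases on opposite strands, and counting was by strand. Within a library Hand2os1 took between 19.9% and 32.0% as many counts as Hand2. The log2 ratio of Hand2os1 to Hand2 averaged -1.89 ± 0.238 in WT and -2.07 ± 0.214 in Pbrm1 cKO, a difference of -0.18 that was smaller than the spread between libraries (p = 0.4, two-sided exact permutation test).

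Hand1, the close relative of Hand2 in heart and extraembryonic tissue, was at background. It had 0 counts in 5 libraries and 1 count in Pbrm1 cKO replicate 1, below the floor of 3 counts, which corresponds to between 0.159 and 0.193 CPM per library. No fold change was formed.

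The dimer partners of these bHLH factors, and the Id proteins that sequester E proteins, were all measured. Of 9 genes in this list, 9 were tested and 5 differed, 2 higher and 3 lower, a share of 55.6% beside 43.7% of all genes. The E protein gene Tcf3 was lower in Pbrm1 cKO cells by the fit (log2 fold change -0.21, adjusted p = 0.0220, edgeR), a call lost without WT replicate 1 (-0.12, adjusted p = 0.116) and without Pbrm1 cKO replicate 1 (-0.19, adjusted p = 0.0824). The E protein genes Tcf4 and Tcf12 had log2 fold changes of -0.03 (95% interval -0.18 to 0.13) and 0.08 (95% interval -0.03 to 0.18), neither past the threshold. Among inhibitors, Id3 had 3458, 3507 and 3557 counts in WT and 5383, 4972 and 5182 in Pbrm1 cKO (log2 fold change 0.58, adjusted p = 2.21e-05, edgeR) and Id4 from 11.9 ± 0.643 to 16.2 ± 2.21 CPM (0.45, adjusted p = 0.00374), whereas Id1 fell from 98.9 ± 8.45 to 82.4 ± 2.17 CPM (-0.26, adjusted p = 0.00288). Id2 had a log2 fold change of -0.03 (adjusted p = 0.656, edgeR). Twist1, another bHLH factor of mesenchyme, fell from 32.0 ± 1.26 to 25.3 ± 1.37 CPM (log2 fold change -0.34, adjusted p = 0.00114, edgeR), and Twist2 had a log2 fold change of 0.25 that did not pass (adjusted p = 0.165).

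Tcf21 (chr10:22817281-22820174, minus strand), a bHLH factor of fibroblast precursors in many organs, had the largest change of the 8 tested genes and was the one called higher. Its counts were 242, 258 and 245 in WT and 457, 432 and 383 in Pbrm1 cKO, or 14.3, 13.8 and 14.3 CPM against 25.7, 22.9 and 24.6 CPM. The lowest mutant library was well above the highest WT library. The mean went from 14.1 ± 0.306 to 24.4 ± 1.40 CPM (SD, n = 3), or 173% of WT, with a log2 fold change of 0.79 (SE 0.08, adjusted p = 3.1e-06, edgeR) and a 95% interval of 154% to 194% of WT. The call was the same in all 14 alternatives, with log2 fold changes between 0.75 and 0.84.

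Many fibroblast markers were also higher. Of the 12 fibroblast markers listed, 11 were tested, 8 were higher and 1 was lower, a share called of 81.8% beside 43.7% of all genes, of which 21.9% were higher, and their summed level ranged from 5002 to 5572 CPM in WT and from 7486 to 7839 CPM in Pbrm1 cKO. Pdgfra, the receptor that defines many fibroblasts, went from 747 ± 12.3 to 1319 ± 39.1 CPM (log2 fold change 0.82, adjusted p = 9.62e-09, edgeR), Dcn had a log2 fold change of 0.92 (adjusted p = 2.25e-08), and Dpt fell by 0.65 on the log2 scale (adjusted p = 5.56e-05). Clec3b was at 4 counts or fewer in every library. The part of these genes' cells in the Tcf21 level was not tested.

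Relatives of Tcf21 with the same bHLH fold were also higher. Tcf23 had 384, 477 and 406 counts in WT and 1060, 644 and 825 in Pbrm1 cKO, going from 24.0 ± 1.42 to 48.9 ± 13.2 CPM, and Pbrm1 cKO replicate 1 was the highest library. Its log2 fold change was 1.02 (SE 0.15, adjusted p = 0.00011, edgeR). Tcf24 had 39, 59 and 34 counts in WT and 108, 100 and 71 in Pbrm1 cKO, a log2 fold change of 1.09 (SE 0.19, adjusted p = 0.000355, edgeR). Msc, a further relative, had between 4 and 11 counts in each library and was not tested. Of the 9 paralogs listed, 5 reached the test. Tcf23 and Tcf24 passed, Nr2f6 and Osr2 did not, and Foxf2 is described with Foxf1; with so few genes the share called is not set against the 43.7% of all genes.

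**Figure D2:**
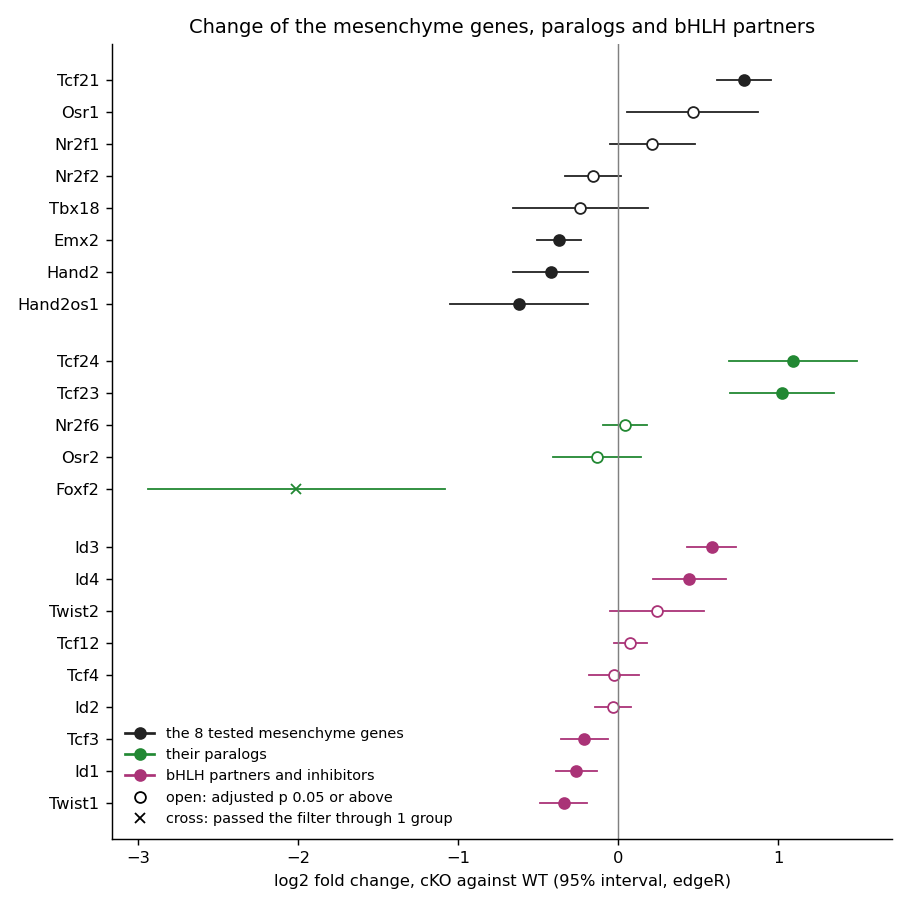
Log2 fold change of Pbrm1 cKO against WT with its 95% interval (x axis, edgeR, n = 3 and 3) for the 8 tested mesenchyme genes (black), their 5 tested paralogs (green) and 9 bHLH partners and inhibitors (purple); filled points had an adjusted p under 0.05. Tcf21, Tcf23 and Tcf24 lie to the right of 0. The cross marks Foxf2, which passed the filter on low counts through the WT libraries only, so its interval is not read as a test.

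Emx2 (chr19:59458372-59465357, plus strand) was the most abundant gene of the set and fell. It had 1243, 1353 and 1171 counts in WT and 1047, 1075 and 774 in Pbrm1 cKO, or 73.5, 72.3 and 68.6 CPM against 58.9, 57.0 and 49.8 CPM. The groups were separate, and Pbrm1 cKO replicate 3 was the lowest. The mean went from 71.4 ± 2.56 to 55.2 ± 4.80 CPM (SD, n = 3), or 77.3% of WT, with a log2 fold change of -0.37 (SE 0.06, adjusted p = 0.000383, edgeR) and a 95% interval of 70.4% to 85.1% of WT. All 14 alternatives kept the call. Its paralog Emx1, a gene of the forebrain, had no count in any library, which allows up to 3 counts per library.

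The antisense RNA Emx2os (chr19:59425104-59458635, minus strand) starts inside the Emx2 window printed above and moved the other way. It had 127, 137 and 122 counts in WT and 161, 165 and 138 in Pbrm1 cKO, or 7.50, 7.32 and 7.14 CPM against 9.05, 8.75 and 8.88 CPM. The groups did not overlap and each was tight. The log2 fold change was 0.28 (SE 0.10, adjusted p = 0.0386, edgeR), but 8 of 14 alternatives left it above the threshold, among them the removal of any library other than Pbrm1 cKO replicate 2 (adjusted p = 0.0654, 0.0941 and 0.0996 without WT replicates 1, 2 and 3, and 0.0987 and 0.0799 without Pbrm1 cKO replicates 1 and 3) and DESeq2 (adjusted p = 0.160). Relative to Emx2 in the same library, the log2 ratio of Emx2os to Emx2 was -3.29, -3.30 and -3.26 in WT and -2.70, -2.70 and -2.48 in Pbrm1 cKO, groups that did not overlap either. The genes share 264 bases, counted by strand.

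Most other neighbours carried few reads. The RNA A830082K12Rik beside Nr2f1 had between 21 and 39 counts (log2 fold change 0.40, adjusted p = 0.249, edgeR), and B130024G19Rik beside Nr2f2 had between 17 and 41 counts (0.58, adjusted p = 0.117). Both were highest in Pbrm1 cKO replicate 1, without which their log2 fold changes were 0.12 and 0.25. Without Pbrm1 cKO replicate 2, B130024G19Rik had a log2 fold change of 0.78 and passed the threshold (adjusted p = 0.0406, edgeR). Gm10824, which spans Tcf21 on the other strand without shared exonic bases, had between 6 and 18 counts (log2 fold change -0.47, adjusted p = 0.368, edgeR). Within 5 kb of Osr1, 1700022H16Rik had no count in any library, and D030062O11Rik beside Tbx18 had at most 3 counts. The overlapping or nearby models Gm17994, Gm44948, Gm20388 and Gm27530 had at most 4 counts. Near Foxf1, Fendrr had at most 1 count per library and the coding gene Mthfsd, with 341 to 418 counts, had a log2 fold change of -0.03 (adjusted p = 0.779, edgeR), a value whose sign turned without WT replicate 1 (0.025).

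**Figure D3:**
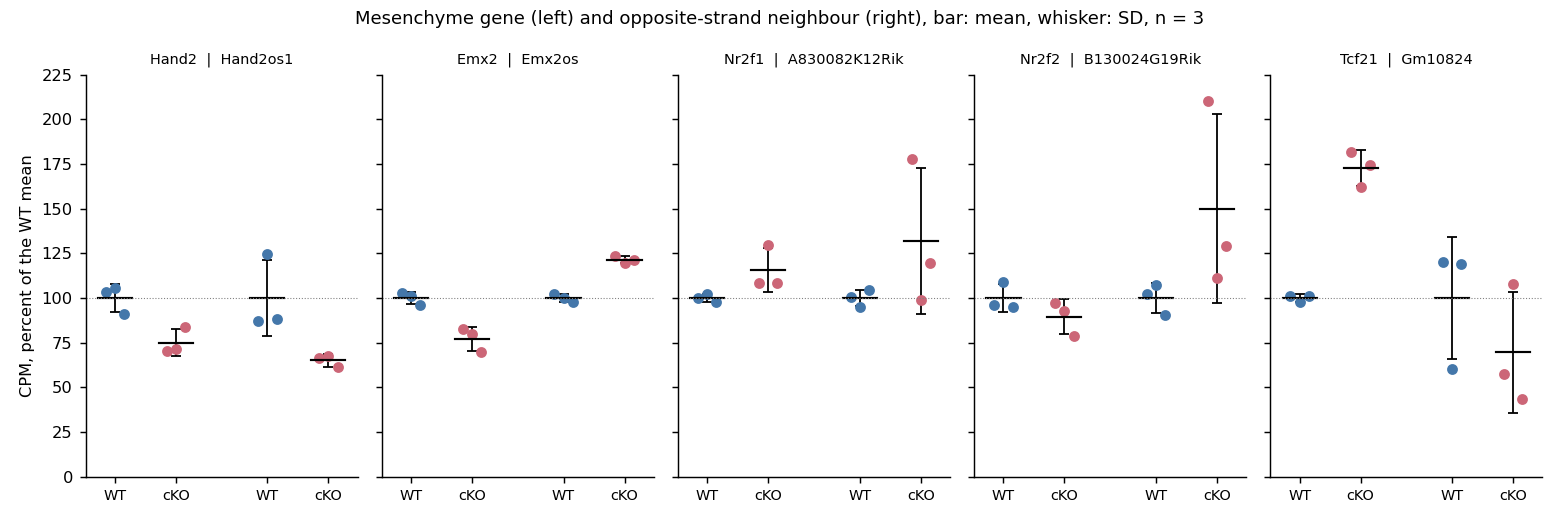
CPM of 5 mesenchyme genes and of their opposite-strand neighbours, as a percent of each gene's own WT mean (y axis, from 0), per library; bars are means and whiskers SDs of 3 libraries. Hand2 and Hand2os1 both lie lower in Pbrm1 cKO, whereas Emx2 is lower and Emx2os higher.

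The nuclear receptor genes Nr2f1 and Nr2f2 did not pass the threshold. Nr2f2 (chr7:70351944-70366735, minus strand), a mediator of progesterone action in uterine stroma, had 41.4, 46.8 and 40.9 CPM in WT and 41.9, 39.8 and 33.9 CPM in Pbrm1 cKO. The groups overlapped, and the log2 fold change of -0.16 had a 95% interval of -0.33 to 0.02 (adjusted p = 0.134, edgeR). Nr2f1 (chr13:78188973-78199757, minus strand) had 5.79, 5.93 and 5.68 CPM in WT and 6.30, 7.53 and 6.31 CPM in Pbrm1 cKO. These ranges were separate, as were those of 5 of the 8 tested genes of the set and of 53.5% of all genes, yet the log2 fold change of 0.21 had a 95% interval of -0.05 to 0.48 (adjusted p = 0.180, edgeR). The log2 ratio of Nr2f1 to Nr2f2 was -2.83, -2.97 and -2.84 in WT and -2.73, -2.40 and -2.42 in Pbrm1 cKO. The difference of 0.37 separated all libraries and had the smallest p that 3 against 3 libraries allow (p = 0.1, two-sided exact permutation test). The third receptor of the family, Nr2f6, had a log2 fold change of 0.04 (95% interval -0.10 to 0.18, adjusted p = 0.634, edgeR).

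Osr1 (chr12:9570116-9581500, plus strand) lay near the threshold. It had 38, 52 and 34 counts in WT and 61, 67 and 42 in Pbrm1 cKO, or 2.25, 2.78 and 1.99 CPM against 3.43, 3.55 and 2.70 CPM. WT replicate 2 and Pbrm1 cKO replicate 3 overlapped. The log2 fold change was 0.47 (SE 0.19, 95% interval 0.06 to 0.88, adjusted p = 0.0624, edgeR), and it was 0.61 without WT replicate 2 (adjusted p = 0.0438) and 0.57 without Pbrm1 cKO replicate 3 (adjusted p = 0.0394). Its paralog Osr2 had more counts, between 266 and 457, and a log2 fold change of -0.13 (adjusted p = 0.429, edgeR). The log2 ratio of Osr2 to Osr1 went from 3.19 ± 0.400 to 2.57 ± 0.239 (difference -0.62, p = 0.2, two-sided exact permutation test).

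Foxf1 (chr8:121084386-121088144, plus strand), a forkhead gene of visceral smooth muscle, was too low for the filter. It had 6, 5 and 2 counts in WT and 6, 13 and 15 in Pbrm1 cKO. Pbrm1 cKO replicate 1 was within the WT range in CPM and the other two were higher. The summed counts of 13 and 34 gave a depth-corrected ratio of 2.64 with a counting interval of 1.36 to 5.46, which leaves out the spread between libraries. With no filter the log2 fold change was 1.37, given as a value without a test, since Foxf1 did not reach the filter. Its paralog Foxf2 went the other way, with 28, 17 and 25 counts in WT and 3, 11 and 3 in Pbrm1 cKO. It reached the filter on low counts only through the WT libraries, where it is high, so its difference is given as values without a test. The fitted log2 fold change of Foxf2 was -2.01, and it was -2.83 without Pbrm1 cKO replicate 2, the mutant library with most reads, and -1.70 without Pbrm1 cKO replicate 1. The log2 ratio of Foxf2 to Foxf1 was 2.38 ± 0.868 in WT, where Foxf2 had more counts in each library, and -1.09 ± 0.973 in Pbrm1 cKO, where Foxf1 had more in each. The difference of -3.47 is likewise given without a test, since Foxf2 entered through the WT libraries only and Foxf1 did not reach the filter.

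Tbx18 (chr9:87702800-87731260, minus strand), a T-box gene of ureteric and tract mesenchyme, had 2.72, 2.25 and 2.46 CPM in WT and 2.08, 1.80 and 2.44 CPM in Pbrm1 cKO. The groups overlapped, and the log2 fold change of -0.24 had a 95% interval of -0.66 to 0.18 (adjusted p = 0.356, edgeR). It shares chromosome 9 with Pgr, into which the Cre was inserted, at a distance of 78.7 Mb, and none of the set lies on chromosome 14 with Pbrm1. Tbx15 had between 2 and 5 counts per library and Tbx22 none. The log2 ratio of Tbx15 to Tbx18, -3.97 ± 0.324 in WT and -3.18 ± 0.457 in Pbrm1 cKO, therefore rests on those few counts. Its difference of 0.79 is given without a test, since Tbx15 did not reach the filter.

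**Figure D4:**
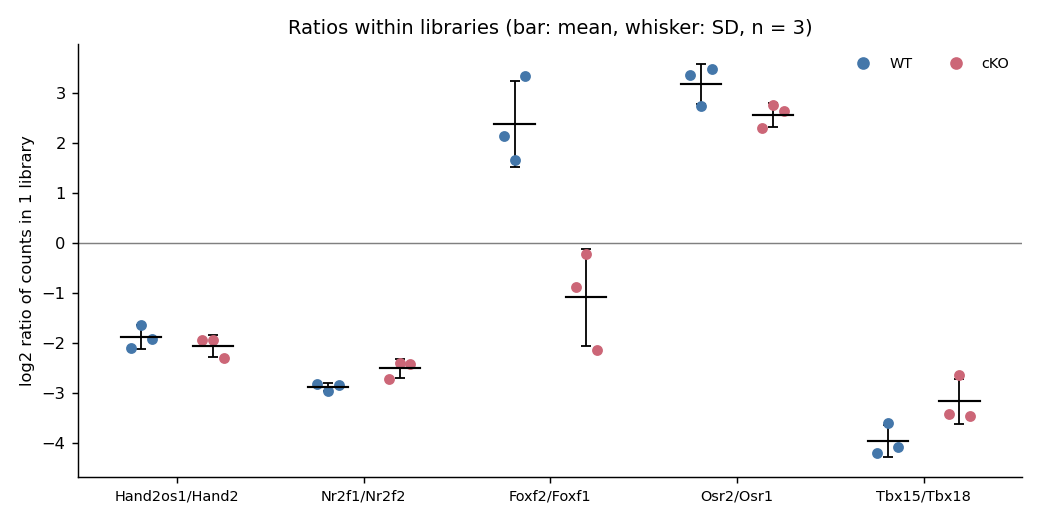
Log2 ratio of counts within each library (y axis, 0.5 added to each count) for Hand2os1 to Hand2 and for 4 pairs of paralogs; blue is WT, red is Pbrm1 cKO, bars are means and whiskers SDs of 3 libraries. The ratio of Foxf2 to Foxf1 goes from above 0 in all WT libraries to below 0 in all Pbrm1 cKO libraries, a difference given without a test.

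Levels of different genes were compared per kilobase of exon. In WT the order was Emx2 at 23.8 CPM per kb, Tcf21 at 6.02, Nr2f2 at 4.99, Hand2 at 4.78, Nr2f1 at 1.14, Osr1 at 1.13, Tbx18 at 0.524, Hand2os1 at 0.237 and Foxf1 at 0.102 CPM per kb, with Hand1 at 0. Library ranges of Nr2f2 and Hand2 overlapped, as did those of Nr2f1 and Osr1, and all other neighbours in the order were separate. In Pbrm1 cKO the order began likewise with Emx2 at 18.4 CPM per kb, Tcf21 at 10.4, Nr2f2 at 4.47 and Hand2 at 3.58 CPM per kb, and the ranges of Nr2f2 and Hand2 again overlapped. Per kilobase, Emx2 thus exceeded Tcf21 3.95 times in WT and 1.77 times in Pbrm1 cKO. At the lower end Osr1 at 1.56 and Nr2f1 at 1.32 CPM per kb overlapped, as did Tbx18 at 0.447 and Foxf1 at 0.275, and Foxf1 and Hand2os1 at 0.155 CPM per kb.

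Among 36 further mesenchyme transcription factors, 31 were tested and 15 differed, 9 higher and 6 lower, or 48.4% beside 43.7% of all genes. The median log2 fold change was -0.12 for this list and -0.20 for the 8 tested genes of the set, beside 0.00 for all genes. Prrx2, a homeobox gene of mesenchyme, rose most, from 16.0 ± 0.367 to 31.3 ± 1.17 CPM (log2 fold change 0.96, adjusted p = 2.03e-07, edgeR), and Prrx1 rose by 0.34 on the log2 scale (adjusted p = 0.000255). The TALE homeobox genes split: Meis1 (0.52, adjusted p = 1.52e-06, edgeR) and Meis2 (0.30, adjusted p = 0.000598) rose and Meis3 fell (-0.71, adjusted p = 0.000106). Gata4, a zinc finger factor that acts with HAND2 in heart, fell from 33.0 ± 2.46 to 20.1 ± 4.04 CPM (log2 fold change -0.72, adjusted p = 0.000227, edgeR), while Gata6 had a log2 fold change of 0.09 (adjusted p = 0.326). Mef2c had a log2 fold change of 0.34 (adjusted p = 0.0153, edgeR) that was lost without WT replicate 1 (adjusted p = 0.0768), and Lhx9 one of -0.58 (adjusted p = 0.0252) that was lost in 5 of 14 alternatives.

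Genes placed upstream or downstream of HAND2 in the uterus were read as a list of 19. Of these, 17 were tested and 7 differed, 3 higher and 4 lower. That is 41.2% beside 43.7% of all genes, a share near the background. Upstream, the progesterone receptor gene Pgr had a log2 fold change of -0.05 (95% interval -0.17 to 0.07, adjusted p = 0.508, edgeR), and the estrogen receptor gene Esr1 one of -0.07 (adjusted p = 0.501). The Hedgehog ligand gene Ihh had 9, 5 and 5 counts in WT and 0, 4 and 1 in Pbrm1 cKO, too few to be tested. Of the Hedgehog target genes, Ptch1, which encodes the receptor, had a log2 fold change of -0.28 (adjusted p = 0.0142, edgeR), which was lost without WT replicate 2 (adjusted p = 0.0550) and without Pbrm1 cKO replicate 3 (adjusted p = 0.0583). Gli1, another target, had 10, 17 and 12 counts in WT and 24, 22 and 16 in Pbrm1 cKO, groups that did not overlap in CPM, and a log2 fold change of 0.68 (95% interval 0.06 to 1.30, adjusted p = 0.0733, edgeR). Smarca4, the ATPase gene of the remodeling complex, and Ep300, an acetyltransferase gene, had log2 fold changes of -0.17 (adjusted p = 0.0229, edgeR) and -0.20 (adjusted p = 0.0187), which lost the call in 4 and 3 of 14 alternatives, all of them fits without 1 library.

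Fibroblast growth factor genes, the class that HAND2 restrains in uterine stroma, did not move as 1 group. Fgf1 had 672, 827 and 764 counts in WT and 1281, 1123 and 1103 in Pbrm1 cKO, rising from 42.9 ± 2.76 to 67.5 ± 6.91 CPM (log2 fold change 0.65, adjusted p = 1.32e-05, edgeR). Fgf9 had 107, 96 and 87 counts in WT and 64, 47 and 37 in Pbrm1 cKO, falling from 5.52 ± 0.699 to 2.82 ± 0.673 CPM (log2 fold change -0.96, adjusted p = 0.000707, edgeR). Groups were separate for both genes. Fgf7 had a log2 fold change of 0.24 (adjusted p = 0.0225, edgeR), lost in 3 of 14 alternatives, each without 1 library, and Fgf2, Fgf10, Fgf16, Fgf18 and Fgf21 did not pass. Fgf17, with at most 3 counts, was not tested. Wnt4, a signal of tract mesenchyme and decidua, rose from 32.7 ± 1.40 to 44.9 ± 8.37 CPM (log2 fold change 0.45, adjusted p = 0.004, edgeR).

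The 5 coding genes whose log2 CPM tracked Hand2 most closely over the 6 libraries, among 10608 compared, were Atp6v0e2 (Pearson r = 0.990), Ap1ar (0.988), Spsb1 (0.986), Ctdspl (0.986) and Raly (0.986). All 5 had a higher level in each WT than in each Pbrm1 cKO library, and Pbrm1 cKO replicate 3 was the highest mutant library in each. Hand2 has both traits and the 5 genes were picked for their likeness to it, so these traits follow largely from the choice. Ranges of the groups were separate for 53.5% of all genes. The correlations describe 6 libraries in 2 groups and carry no test.

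Markers of other cell types were read against the same background of 43.7% of all genes called, 21.9% higher and 21.8% lower. Of 10 tested leukocyte markers 9 (90.0%) were higher in Pbrm1 cKO, with summed levels of 745 to 793 CPM in WT and 1090 to 1179 CPM in Pbrm1 cKO, while the lymphocyte markers Cd3e and Cd79a were at 5 counts or fewer. Of 10 epithelial markers 6 were higher and none lower (summed levels 999.9 to 1087 against 1159 to 1294 CPM), of 7 tested pericyte markers 6 were higher and 1 lower, 100.0% in all (442 to 476 against 542 to 637 CPM), and of 8 smooth muscle markers 5 were higher and 1 lower, 75.0% in all (3418 to 3482 against 4192 to 4670 CPM). Mesothelial markers included 1 higher and 3 lower of 6 tested, 66.7% in all (325 to 335 against 350 to 381 CPM), and endothelial markers 2 higher and 1 lower of 8, or 37.5%, below the share of all genes (352 to 373 against 297 to 308 CPM). The part of these cells in the levels of Hand2, Hand2os1, Emx2 and Tcf21 was not tested.

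**Figure D5:**
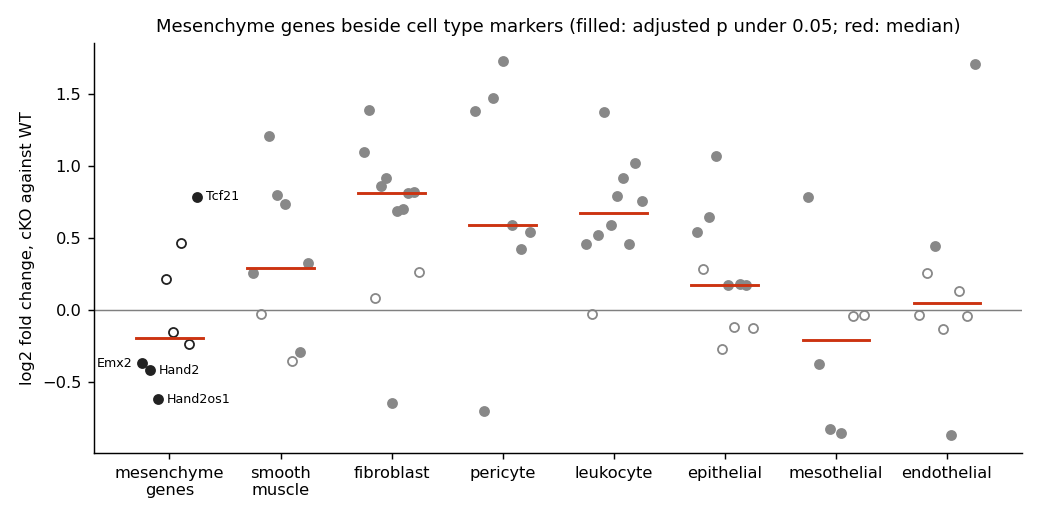
Log2 fold change of Pbrm1 cKO against WT (y axis, edgeR) for the 8 tested mesenchyme genes (black) and the tested markers of 7 cell types (grey); filled points had an adjusted p under 0.05 and red lines are medians. Tcf21 lies at 0.79, and Hand2, Hand2os1 and Emx2 lie below 0. Medians are 0.82 for fibroblast, 0.67 for leukocyte, 0.59 for pericyte and 0.29 for smooth muscle markers. They are 0.18 for epithelial, 0.05 for endothelial and -0.21 for mesothelial markers.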

How the data were processed

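RNA-seq of 6 libraries was used, 3 WT and 3 Pbrm1 cKO, grouped by the genotype in the labels. The authors deposited whole-number read counts per gene, made with featureCounts 1.6.4 in reverse-stranded mode on GENCODE M18 exons per the file headers, after cutadapt and HISAT2 (GRCm38.p5) per the submitters' processing notes. By default this leaves out reads that map to several places. Symbols came from GENCODE M21 and covered 54079 of 54232 genes. Counts were tested with edgeR 4.0.16 in R 4.3.3 (trimmed mean of M values, filterByExpr, two-sided quasi-likelihood F-test with the group as the only term, Benjamini-Hochberg over 15376 genes, threshold 0.05), and CPM used the same factors. Standard errors were obtained as |log2 fold change| / sqrt(F). Alternatives were DESeq2 1.42.0, limma-voom (limma 3.58.1), other scalings, filters and thresholds, a block for replicate numbers, and the removal of single libraries. Ratios used counts plus 0.5. No 2 libraries were identical. Counting intervals and floors (3 counts) cover counting error only, since reads carried no molecular identifiers.

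The genes followed, and the lists set beside them, were chosen with earlier results of these data known. Named were all 10 genes, Pbrm1, annotated genes overlapping them or within 5 kb, up to 8 members per list with an adjusted p under 0.05 and the largest changes, and the 5 coding genes with a mean of at least 5 CPM that were most correlated with Hand2; genes named beyond this rule (list members that did not pass, paralogs that were not tested and marker genes) were chosen after their values were seen.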

Additional observations from a re-analysis of the deposited data

How the results depend on the processing

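The counts of genes called held within 1.5 times of 6723 throughout, ranging from 5532 to 7054 when 1 library was left out, and being 5535 with DESeq2 and 4665 at an adjusted p under 0.01. Of the 10 mesenchyme genes, Emx2, Hand2 and Tcf21 were called in every alternative, between 3 and 5 genes in all. Hand2os1 dropped out in 4 of 14 fits, and Osr1 joined without WT replicate 2 and without Pbrm1 cKO replicate 3. Foxf1 joined with no filter, a call that carries no weight, since its counts were too low for the filter. Its calls without WT replicate 1 and without Pbrm1 cKO replicate 1 carry none either. It reached those fits only through mutant libraries where it is high. Without 1 library the log2 fold change of Hand2 ranged from -0.50 to -0.37, and the difference in log2 ratio ranged from -0.29 to -0.05 for Hand2os1 to Hand2, 0.31 to 0.47 for Nr2f1 to Nr2f2, -3.90 to -2.95 for Foxf2 to Foxf1, -0.85 to -0.48 for Osr2 to Osr1 and 0.53 to 0.98 for Tbx15 to Tbx18. Mthfsd was -0.03 and ranged from -0.064 to 0.025 without 1 library, being positive without WT replicate 1 and never past the threshold, and the cause was not tested. Gm10824 and Foxf2 were not tested where 10 counts in every library were required. Few counts limit Foxf1, Foxf2, Hand2os1, Osr1, Tbx18 and Tbx15.

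With the replicate number as a block, 6908 genes were called and Hand2 had a log2 fold change of -0.42 (adjusted p = 0.0096, edgeR). The same 4 mesenchyme genes were called, and Emx2os was no longer past the threshold (adjusted p = 0.0541). Deviations of libraries with the same number correlated at -0.02, 0.04 and 0.09, and those with different numbers at -0.08 to 0.04. With 3 libraries per group, this does not settle whether the numbers pair the libraries. In paired differences of log2 ratios, Hand2os1 to Hand2 gave -0.18 with an exact sign-flip p of 0.5, and 0.25 is the smallest p that 3 pairs allow.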
